A study of Mus musculus with 28 samples.

Results

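The unfolded protein response is the programme by which a cell adjusts the folding capacity of its endoplasmic reticulum (ER), and its genes were followed here as a set of 34 genes out of the 13519 counted in colon organoids of the mouse. The set was named by function, from lists of ER chaperones, ER-associated degradation and stress sensors, by a rule that uses no measured value, although earlier results of these data were known when it was written. It holds 15 chaperones and folding enzymes, 8 genes of ER-associated degradation (ERAD), 5 sensors together with the factor *Xbp1*, and 6 genes of the arm of the factor *Atf4*. All 34 were found in the count table, with 1 to 43 counts per sample for *Derl3* and 100 or more in every sample for each other member.

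Secretory and absorptive cells of the gut fold large amounts of protein in the ER. When unfolded protein builds up, *Hspa5* leaves the sensors *Ern1*, its gut-restricted relative *Ern2*, *Eif2ak3* and *Atf6*. *Ern1* splices the mRNA of *Xbp1*, and *Xbp1* and cleaved *Atf6* then raise chaperone and ERAD genes. *Eif2ak3* phosphorylates eIF2alpha, which slows protein synthesis and favours translation of *Atf4*. *Atf4* in turn raises *Ddit3*, *Trib3*, *Chac1*, *Asns* and *Ppp1r15a*, and related kinases that sense lack of amino acids or haem reach *Atf4* without ER stress. Splicing of *Xbp1*, cleavage of *Atf6* and translation of *Atf4* cannot be read from counts per gene.

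The organoids came from the colon epithelium of C57BL/6N mice, and every one carried VillinCreERT2, a tamoxifen-activated Cre driven in intestinal epithelium, and 2 floxed *Apc* alleles (APCflox/flox). AC organoids held these alone, PAC organoids also 1 Trp53LSL-R172H allele, BAC organoids also 1 BraffloxV600E allele, and BPAC organoids both of them. There were 7 donor mice, 1 for AC and 2 for each other genotype, with 2 cultures per donor that are called duplicates 1 and 2. Each of the 14 cultures was treated for 24 hours with ethanol (EtOH) or with 3.5 µM 4-hydroxytamoxifen (4-HT), which activates Cre, and RNA was taken 3 days later, which gave 28 samples. Each 4-HT comparison is therefore of recombined against unrecombined organoids of one genotype, and because *Apc* is floxed in every genotype, no group was designed to recombine the *Braf* or *Trp53* allele without *Apc*. As every organoid carried Cre, an effect of 4-HT or of Cre activity itself cannot be told apart from recombination within a genotype. Cultures are written as donor and duplicate, so that 2-1 is duplicate 1 of donor 2, and values of 4 samples are given in the order 1-1, 1-2, 2-1 and 2-2.

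Totals ran from 20577276 to 40068718 counts per sample, and the 4 deepest were the 4-HT-treated duplicate 1 samples of BAC and BPAC, with 37438687 or more. *Trp53* itself rose with 4-HT in all 4 genotypes, by 0.74, 1.51, 0.97 and 1.84 on the log2 scale in AC, PAC, BAC and BPAC. The gene counts of *Apc* and *Braf* do not show the recombined exons. The 4-HT-treated PAC samples 1-1 and 2-1 stood apart: they held 25.2 and 22.0 CPM (counts per 1000000 of the scaled total) of *Xist* and 55.02 and 53.5 CPM of Y-linked genes at once, whereas every other sample of donor 1 held Y-linked and of donor 2 *Xist* transcripts. Their counts differed by a chi-square per degree of freedom of 2.38, against 8.53 or more in every other pair of one group. The members called in PAC and in the *Braf* comparison, and the counts of the other lists, are therefore also given without these 2 cultures. The EtOH sample of PAC culture 2-1 was in addition the highest of the 14 EtOH samples for members including *Trib3*, *Ppp1r15a*, *Atf4*, *Chac1*, *Hspa5*, *P4hb* and *Xbp1*, as was seen once their values were known.

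Epithelial markers were high in every sample, with the sum of *Epcam*, *Cdh1*, *Krt8*, *Krt18* and *Cdx2* between 10405 and 18652 CPM. Of 8 plasma and immune cell markers 1 was in the table, *Cd3e* at 0.0944 to 2.04 CPM, and of 6 fibroblast markers 1 was, *Vim* at 2.30 to 6.33 CPM. Cell types within the epithelium did move with 4-HT. The summed level of 8 colonocyte markers lay between 16804 and 26689 CPM with EtOH and between 3525 and 11581 CPM with 4-HT. For 5 markers of dividing cells it was 421 to 584 CPM with EtOH, 688 to 745 CPM with 4-HT in AC and PAC, and 950.0 to 1042 CPM with 4-HT in BAC and BPAC. For 10 goblet cell markers the range with EtOH and then with 4-HT was 3190 to 3818 and 2489 to 2999 CPM in AC, without overlap, and 3224 to 5935 and 2156 to 3422 CPM in BAC. It was 2499 to 3246 and 2485 to 3001 CPM in PAC and 2337 to 5032 and 2379 to 3185 CPM in BPAC. In such bulk samples fewer cells of a type and less RNA per cell cannot be told apart, and the part of these shifts in the results was not tested.

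Before recombination the folding enzymes were the most abundant members. Per kilobase of exon, the median level over the 14 EtOH samples was 503 CPM for *P4hb*, the beta subunit of prolyl hydroxylase and a protein disulfide isomerase. It was 269.5 for *Calr* (calreticulin), 214 for *Pdia3*, 167 for *Hspa5* and 121 for *Canx* (calnexin). The ranges of *P4hb*, *Calr* and *Pdia3* over these samples did not overlap. Those of *Pdia3* (from 180.0) and *Hspa5* (up to 200.2) did, and so did those of *Hspa5* (from 136) and *Canx* (up to 146). Among the factors, *Xbp1* stood at 83.0 and *Atf4* at 47.4 CPM per kilobase, and among the sensors *Ern2* at 22.2 was above *Eif2ak3* at 5.41, *Atf6* at 5.05 and *Ern1* at 2.40. *Derl3* was lowest, at 0.242 CPM per kilobase.

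The question was how these genes answered 4-HT treatment in each genotype. Of 15 ER chaperones 8 rose and 1 fell with 4-HT in BAC organoids and 9 rose and 2 fell in BPAC organoids, and of the *Atf4* arm *Atf4*, *Trib3* and *Asns* rose in both and *Ddit3*, *Chac1* and *Ppp1r15a* did not pass, while in AC and PAC organoids no member rose at an adjusted p below 0.01 in edgeR's quasi-likelihood test over all genes. In AC 0 of the 34 members passed in either direction (9 had an unadjusted p under 0.05), beside 3% of all genes that rose and 4.25% that fell. DESeq2 called 1 member in AC and limma-voom 0, and AC had 2 samples per arm. In PAC 0 members rose, beside 11.2% of all genes, and 5 fell, which is 14.7% of the members beside 12.2% of all genes.

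In BAC 12 members rose, 35.3% of them beside 20.3% of all genes, and 1 fell, 2.94% beside 21.5%. In BPAC 13 rose, 38.2% beside 22% of all genes, and 4 fell, 11.8% beside 23%. In AC, PAC, BAC and BPAC the median log2 fold change was -0.05, -0.17, 0.24 and 0.07 over the 34 members and 0.01, -0.03, -0.04 and -0.04 over all genes. With the culture as a replicate block, which pairs the EtOH and the 4-HT sample of one culture, 1 member rose and 0 fell in AC (7.45% and 8.99% of all genes), and 1 rose and 9 fell in PAC (16.5% and 18.4%). In BAC 14 rose and 4 fell with the block (25.3% and 26.7% of all genes), and in BPAC 14 rose and 5 fell (26.7% and 27.7%). Scaling by library size alone, which moves the median of all genes by 0.22, 0.22, 0.17 and 0.21 in the 4 genotypes, turned the split in PAC to 5 up and 1 down and that in BPAC to 17 up and 1 down. In AC it gave 4 up and 0 down, and in BAC 16 up and 1 down. Of all genes 11.2%, 25.1%, 28.7% and 32% rose and 2.23%, 5.45%, 15.3% and 15.1% fell under this scaling in AC, PAC, BAC and BPAC. It gave 11, 10, 5 and 6 members another sign in AC, PAC, BAC and BPAC.

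**Figure D1:**
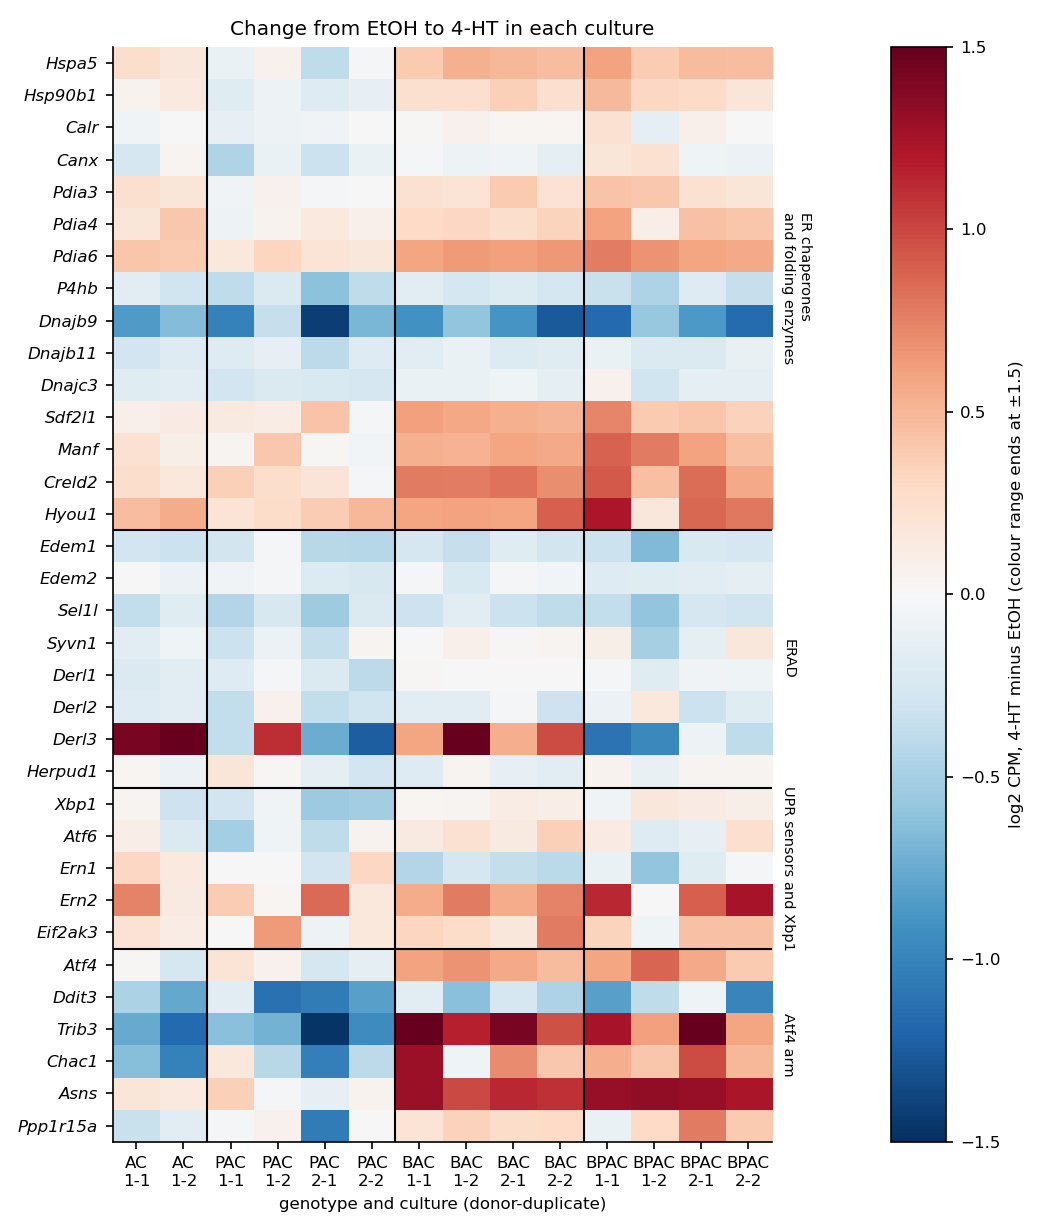
Change of each of the 34 members (rows, grouped by arm) from EtOH to 4-HT in each of the 14 cultures (columns, by genotype), as the difference in log2 CPM, red for higher and blue for lower with 4-HT. *Trib3* is blue in all 6 AC and PAC cultures and red in all 8 BAC and BPAC cultures, *Dnajb9* is blue in every column, and the colours of *Derl3* rest on at most 43 counts per sample.

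Across the 14 cultures, 3 members were higher with 4-HT in every one (*Pdia6*, *Hyou1* and *Ern2*) and 6 were lower in every one (*P4hb*, *Dnajb9*, *Dnajb11*, *Edem1*, *Sel1l* and *Ddit3*). With library size alone *Pdia6*, *Hyou1*, *Ern2* and *Dnajb9* kept their direction in all 14 cultures and the other 5 did not. The 9 genes are 8.82% and 17.6% of the members, and among all genes 18.5% were higher and 19.5% lower in every culture. The median over the genes of an arm was taken in each culture, and its mean ± SD on the log2 scale is given for AC (2 cultures) and then for PAC, BAC and BPAC (4 cultures each). For the chaperones it was 0.10 ± 0.03, -0.03 ± 0.06, 0.28 ± 0.06 and 0.30 ± 0.14, but 0.33, 0.19, 0.44 and 0.51 under library size alone. For the *Atf4* arm it was -0.46 ± 0.08, -0.36 ± 0.47, 0.63 ± 0.22 and 0.60 ± 0.19, with 1 of the 6 cultures of AC and PAC above 0 and all 8 of BAC and BPAC above 0. Library size alone moved the *Atf4* arm to -0.24 in AC and 0.81 in BPAC. For the ERAD genes it was -0.15 ± 0.04, -0.24 ± 0.15, -0.08 ± 0.04 and -0.20 ± 0.10, below 0 in every culture, but 0.07, -0.02, 0.09 and 0.01 under library size alone. For the sensors with *Xbp1* it was 0.16 ± 0.08, -0.03 ± 0.19, 0.21 ± 0.10 and 0.11 ± 0.13, but 0.38, 0.19, 0.38 and 0.33 under library size alone. In PAC cultures 1-2 and 2-2, without duplicate 1, the medians were 0.049 and -0.028 for chaperones and -0.020 and -0.294 for ERAD genes. They were -0.008 and 0.161 for sensors with *Xbp1* and -0.214 and -0.268 for the *Atf4* arm.

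Promoters of 7 of the 13 chaperones with a known promoter hold an element named for the ER stress response. As the genes were named by that function too, its share among the members is a description and not a test. The ER stress response element (ERSE), to which ATF6 binds together with NF-Y, was searched as CCAAT, 9 bases of any kind and CCACG on both strands. RefSeq promoters of GRCm38.p6, from 250 bases before to 50 after the start, were found for 29 of the 34 members, and not for *Manf*, *Hyou1*, *Derl1*, *Atf6* and *Ern2*. The element was in 9 of the 29, against 39 of all 32851 promoters (0.119%). The 9 were *Hspa5*, *Hsp90b1*, *Calr*, *Canx*, *Pdia6*, *Dnajc3*, *Creld2*, *Syvn1* and *Derl3*, and *Hsp90b1* held it at 2 places. Of the 9 genes, *Hspa5*, *Hsp90b1*, *Pdia6* and *Creld2* rose in BAC and BPAC and the other 5 passed in no genotype, and a match describes the letters alone. The 250 bases before the start are shown for those 4, with the element in capitals, at chr2:34771840-34772089 (plus strand), chr10:86705445-86705694 (minus), chr12:17266339-17266588 (plus) and chr15:88819396-88819645 (plus).
Hspa5: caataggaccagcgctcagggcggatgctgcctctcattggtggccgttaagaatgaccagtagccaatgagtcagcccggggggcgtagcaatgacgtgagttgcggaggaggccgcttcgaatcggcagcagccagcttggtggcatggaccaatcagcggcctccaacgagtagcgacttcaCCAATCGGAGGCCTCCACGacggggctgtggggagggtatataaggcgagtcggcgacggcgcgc
Hsp90b1: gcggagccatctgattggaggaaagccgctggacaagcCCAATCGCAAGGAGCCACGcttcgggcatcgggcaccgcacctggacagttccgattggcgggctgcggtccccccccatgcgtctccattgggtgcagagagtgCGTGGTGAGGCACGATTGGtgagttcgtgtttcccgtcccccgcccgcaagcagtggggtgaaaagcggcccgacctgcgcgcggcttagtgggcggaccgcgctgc
Pdia6: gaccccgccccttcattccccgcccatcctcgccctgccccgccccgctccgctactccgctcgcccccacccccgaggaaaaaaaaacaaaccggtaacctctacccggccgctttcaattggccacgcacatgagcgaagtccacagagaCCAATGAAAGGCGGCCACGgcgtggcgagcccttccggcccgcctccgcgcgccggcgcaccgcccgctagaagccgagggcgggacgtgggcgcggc
Creld2: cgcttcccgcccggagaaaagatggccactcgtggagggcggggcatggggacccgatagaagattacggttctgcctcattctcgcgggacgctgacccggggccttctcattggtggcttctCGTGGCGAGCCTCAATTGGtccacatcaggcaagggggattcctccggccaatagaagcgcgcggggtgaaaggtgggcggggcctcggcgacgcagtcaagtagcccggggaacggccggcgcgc
In *Hspa5* the element spans bases -65 to -47 and in *Pdia6* -98 to -80 in the direction of the gene, in *Creld2* it spans -126 to -108 in reverse, and in *Hsp90b1* it spans -212 to -194 forward and -107 to -89 in reverse. An exact match to tgacgtgg, the core of an *Xbp1*-binding element, was in 0 of the 29 promoters and in 222 of all promoters (0.676%). Other sequences that *Xbp1* may bind were not searched, so this does not show that the promoters lack *Xbp1* sites.

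Among the chaperones, *Hspa5* (BiP, ENSMUSG00000026864, chromosome 2 from 34771970 to 34777547, plus strand, GRCm38) is the Hsp70 of the ER lumen and holds 1 exact match to the searched ERSE in the promoter shown above. Its level with EtOH had a lowest value of 573, a median of 707 and a highest value of 847 CPM over 14 samples. With 4-HT the AC samples held 688 and 746 CPM, the PAC samples 671, 709, 651 and 663 CPM, the BAC samples 1050.1, 974, 1021 and 946 CPM and the BPAC samples 1084, 971, 989 and 972 CPM. All 8 recombined samples with the *Braf* allele lay above all 6 without it and above all 14 EtOH samples. The log2 fold change was 0.47 ± 0.08 (SE, edgeR adjusted p = 2.13e-05) in BAC and 0.48 ± 0.08 (SE, edgeR adjusted p = 1.32e-05) in BPAC, and 0.21 and -0.12 in AC and PAC.

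*Hsp90b1* (ENSMUSG00000020048, chromosome 10 from 86690209 to 86705509, minus strand) encodes Grp94, the Hsp90 of the ER. After 4-HT its level in AC was 314 and 368 CPM, the PAC samples 312, 329.6, 298 and 308 CPM, the BAC samples 409.8, 419.6, 425 and 423 CPM and the BPAC samples 442, 420.5, 408 and 406 CPM. With EtOH it ranged from 303 to 358 CPM (median 340.0), so the BAC and BPAC samples with 4-HT were again above all others. It rose by 0.28 ± 0.06 (SE, edgeR adjusted p = 0.000647) in BAC and 0.32 ± 0.06 (SE, edgeR adjusted p = 0.000134) in BPAC, and its exons share 415 bases with *1810014B01Rik* on the other strand, whose reads cannot be told apart here because the strand setting of the counting is not known. The changes of *Hsp90b1* per culture without the *Braf* allele ran from -0.19 to 0.14, above 0 in 2 of 6 cultures.

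*Manf* (ENSMUSG00000032575, chromosome 9 from 106838312 to 106891979, minus strand) encodes a secreted partner of *Hspa5*. In the 4-HT-treated organoids of AC it was 93.1 and 92.2 CPM, the PAC samples 97.1, 102, 93.7 and 87.4 CPM, the BAC samples 133, 125, 138 and 124 CPM and the BPAC samples 144, 112, 137 and 120.3 CPM. The level with EtOH was 65.3 to 94.4 CPM (median 87.3), and the 8 samples of BAC and BPAC with 4-HT, 112 to 144 CPM, did not overlap with the 6 of AC and PAC, 87.4 to 102 CPM. The log2 fold change was 0.56 ± 0.09 (SE, edgeR adjusted p = 2.23e-05) in BAC and 0.68 ± 0.09 (SE, edgeR adjusted p = 1.28e-06) in BPAC. In the 6 cultures without the *Braf* allele the changes ran from -0.04 to 0.41, above 0 in 5 of them. Exons of *Manf* overlap those of *Dcaf1* on the other strand (146 bases) and of *Rbm15b* on the same strand (14 bases).

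*Creld2* (ENSMUSG00000023272, chromosome 15 from 88819646 to 88826683, plus strand) encodes an ER protein with disulfide isomerase activity and had the largest rise among the chaperones in BAC. Recombined AC organoids held 55.7 and 52.6 CPM, the PAC samples 62.8, 59.5, 61.5 and 56.3 CPM, the BAC samples 92.6, 82.4, 92.2 and 82.7 CPM and the BPAC samples 96.7, 69.3, 92.5 and 82.1 CPM. With EtOH every sample lay between 46.6 and 56.8 CPM, and with 4-HT those without the *Braf* allele lay between 52.6 and 62.8 CPM. It rose by 0.77 ± 0.08 (SE, edgeR adjusted p = 4.91e-08) in BAC and by 0.70 ± 0.08 (SE, edgeR adjusted p = 1.32e-07) in BPAC, with sample 1-2 of BPAC the lowest of its group. Without the allele the changes per culture ran from -0.01 to 0.36, above 0 in 5 of 6 cultures.

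Among the protein disulfide isomerases, *Pdia6* (ENSMUSG00000020571, chromosome 12 from 17266545 to 17284770, plus strand) was higher with 4-HT in all 14 cultures, by a log2 CPM of 0.16 to 0.41 where the *Braf* allele was absent (6 cultures) and of 0.57 to 0.77 where it was present (8 cultures), ranges that do not overlap. Its level was 238 to 345 CPM with EtOH, and with 4-HT 335 to 368 CPM without and 379 to 519 CPM with the allele. Its log2 fold change was 0.62 ± 0.10 (SE, edgeR adjusted p = 1.44e-05) in BAC and 0.65 ± 0.10 (SE, edgeR adjusted p = 7.14e-06) in BPAC. In AC and PAC it was 0.40 and 0.21, which were called under the replicate block (at 0.40 and 0.21) and with library size alone (0.62 and 0.44). *Pdia3*, which acts on glycoproteins bound to *Calr* and *Canx*, was 565 to 722 CPM with EtOH and, with 4-HT, 619.7 to 743 CPM without and 749 to 872 CPM with the *Braf* allele. It rose by 0.26 ± 0.07 (SE, edgeR adjusted p = 0.00411) in BAC and 0.31 ± 0.07 (SE, edgeR adjusted p = 0.00087) in BPAC. Without the allele its changes per culture ran from -0.05 to 0.24, above 0 in 3 of 6 cultures. *Pdia4* rose in BPAC, by 0.38 ± 0.12 (SE, edgeR adjusted p = 0.00866), and in BAC with the block (0.30), library size alone (0.47) or donors summed (0.31).

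*Hyou1*, the ER relative of Hsp110 that exchanges nucleotide on *Hspa5*, rose by 0.67 ± 0.14 (SE, edgeR adjusted p = 0.000243) in BAC and 0.74 ± 0.14 (SE, edgeR adjusted p = 6.45e-05) in BPAC. Its changes per culture ran from 0.20 to 0.56 in the 6 cultures without and from 0.17 to 1.22 in the 8 with the *Braf* allele, so the groups overlapped. *Sdf2l1*, a cofactor of ER DnaJ proteins, rose by 0.56 ± 0.11 (SE, edgeR adjusted p = 9.05e-05) in BAC and 0.47 ± 0.11 (SE, edgeR adjusted p = 0.000501) in BPAC. With 4-HT its level was 81.8 to 89.8 CPM without and 86.0 to 124 CPM with the *Braf* allele, and sample 1-2 of BPAC lay within the lower range. Its changes per culture without the allele ran from -0.01 to 0.43, above 0 in 5 of 6 cultures.

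Other folding genes fell. *Dnajb9* (ENSMUSG00000014905, chromosome 12 from 44205559 to 44210326, minus strand), the DnaJ protein ERdj4 that recruits *Hspa5* to *Ern1*, had a lowest value of 24.4, a median of 28.6 and a highest value of 36.3 CPM with EtOH. With 4-HT the AC samples held 16.5 and 16.8 CPM, the PAC samples 14.7, 21.8, 13.6 and 16.4 CPM, the BAC samples 13.01, 16.1, 13.6 and 13.1 CPM and the BPAC samples 13.1, 19.8, 13.7 and 15.4 CPM. Every 4-HT sample was below every EtOH sample. It fell by 0.86 in PAC, 0.92 in BAC and 0.93 in BPAC (edgeR adjusted p = 0.000123, 1.43e-05 and 9.42e-06), while its log2 fold change in AC, -0.76 ± 0.21 (SE), did not pass (edgeR adjusted p = 0.0148).

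*P4hb* went from 1429, 1260.4, 1705 and 1476 CPM with EtOH to 1100.1, 1082, 1115 and 1132 CPM with 4-HT in PAC and from 1504, 1637, 1369.5 and 1512 to 1196, 1189, 1198 and 1187 CPM in BPAC, without overlap in either genotype. *P4hb* fell by 0.41 in PAC and 0.34 in BPAC (edgeR adjusted p = 0.000311 and 0.000717), and its log2 fold changes in AC and BAC were -0.24 and -0.23. *Dnajb11*, the DnaJ partner ERdj3, fell in PAC by 0.23 (edgeR adjusted p = 0.00486). With library size alone these falls did not pass, at -0.18 in PAC and -0.12 in BPAC for *P4hb* and -0.0017 in PAC for *Dnajb11*. *Calr*, *Canx* and *Dnajc3* passed in no genotype, with log2 fold changes of -0.02, -0.06, 0.04 and 0.05 for *Calr*, -0.08, -0.23, -0.07 and 0.06 for *Canx* and -0.17, -0.25, -0.10 and -0.13 for *Dnajc3* in AC, PAC, BAC and BPAC. With the block *Dnajc3*, an inhibitor of eIF2alpha kinases, fell in PAC (log2 fold change -0.25).

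**Figure D2:**
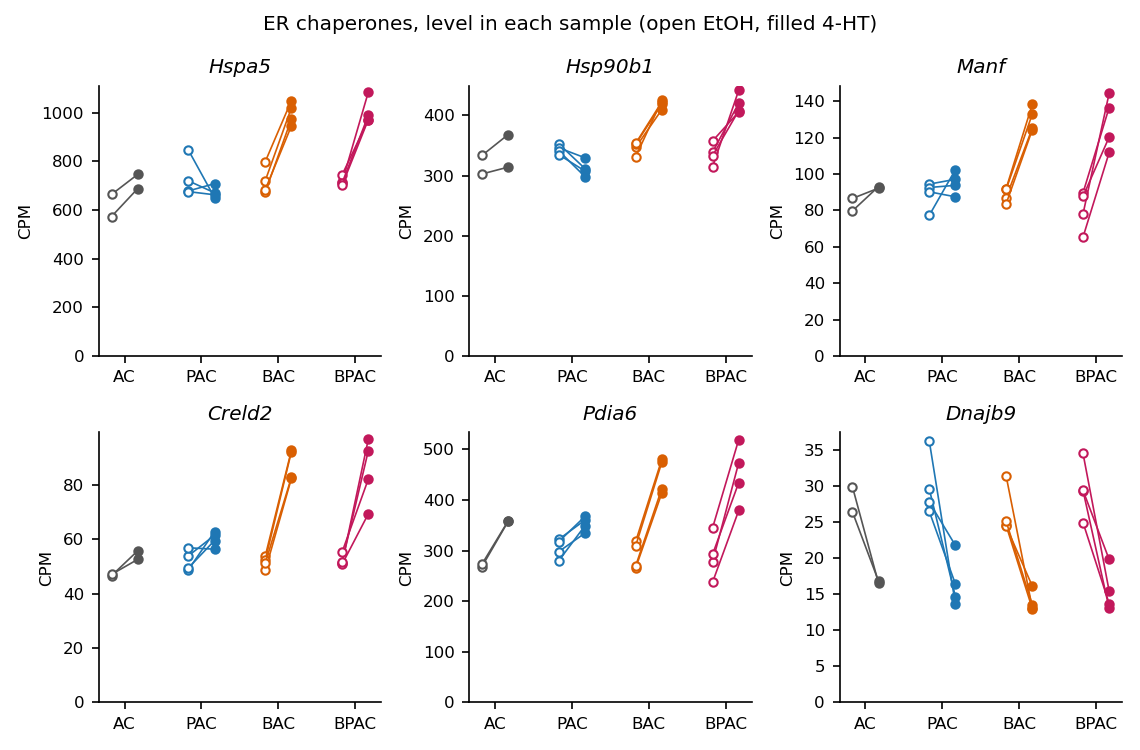
Level in CPM (linear axes from 0) of 6 ER chaperone genes in each sample, open circles EtOH and filled circles 4-HT, with a line joining the samples of one culture and genotypes along the horizontal axis. *Hspa5*, *Hsp90b1*, *Manf*, *Creld2* and *Pdia6* with 4-HT lie above the AC and PAC samples in BAC and BPAC, and *Dnajb9* falls in every culture.

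Some of these calls missed the threshold when a culture or donor was left out, in fits that also hold fewer samples. Without donor 1 of BAC, *Hsp90b1* and *Sdf2l1* missed the threshold in BAC (log2 fold changes 0.31 and 0.52), and without donor 2 *Hsp90b1*, *Hyou1* and *Dnajb9* did (0.25, 0.59 and -0.75). *Pdia3* missed it in BAC without any one BAC culture or donor (0.22 to 0.30) and in BPAC without culture 1-1 (0.26) or donor 1 (0.20). In BPAC, *Hsp90b1* (0.24) and *P4hb* (-0.27) missed it without donor 1, *Sdf2l1* without culture 1-1 (0.39), *Hyou1* without donor 2 (0.66) and *Pdia4* in 11 of 20 such fits (0.32 to 0.42). *Hspa5*, *Pdia6*, *Manf* and *Creld2* passed in BAC and BPAC, and *Dnajb9* in BPAC, whichever culture or donor was left out. In PAC none of the 3 falls passed without the 2 duplicate 1 cultures, where the log2 fold changes were -0.31 for *P4hb*, -0.51 for *Dnajb9* and -0.16 for *Dnajb11*. These 3 also missed it without donor 2 (-0.30, -0.66 and -0.16), and *Dnajb11* did so in 7 of 20 such fits in all (-0.29 to -0.16).

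Genes of ERAD, which returns misfolded protein to the cytosol for the proteasome, did not pass in AC, PAC and BAC, and in BPAC 2 of 8 fell (25%, beside 23% of all genes). *Edem1*, a lectin-like protein that hands over misfolded glycoproteins, fell in BPAC from 191, 263, 148 and 173 to 153, 166, 126 and 145 CPM (-0.39 ± 0.12, SE, edgeR adjusted p = 0.00712 on the log2 scale). *Sel1l*, the scaffold of the Hrd1 ubiquitin ligase complex, fell in BPAC from 149, 198, 129 and 158 to 115, 131, 109 and 128 CPM (-0.39 ± 0.12, SE, edgeR adjusted p = 0.0095). The 4-HT level of both was below the EtOH level in each of the 14 cultures, although in BPAC the *Edem1* and the *Sel1l* values of different cultures overlapped between treatments. With the replicate block both also fell in PAC (-0.29 and -0.36) and BAC (-0.26 and -0.30). With library size alone neither passed in BPAC, at -0.17 and -0.17. Near the threshold in BPAC, *Edem1* missed it in 12 and *Sel1l* in 16 of the 20 fits that left out a culture or donor, with values of -0.24 and -0.28 without donor 1.

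No other ERAD member passed in any genotype. In AC, PAC, BAC and BPAC the log2 fold changes were -0.04, -0.13, -0.08 and -0.17 for *Edem2*, -0.11, -0.19, 0.03 and -0.10 for *Syvn1* (the ligase Hrd1), -0.19, -0.21, 0.00 and -0.08 for *Derl1* and -0.17, -0.24, -0.17 and -0.11 for *Derl2*, both of the channel. They were -0.02, -0.05, -0.11 and 0.00 for *Herpud1*, an ER membrane protein of the same complex, and 2.04, -0.43, 0.92 and -0.61 for the scarcely expressed *Derl3*. Counts of *Syvn1* share 91 exon bases with *Mrpl49* and those of *Derl2* 231 with *Mis12* on the other strand.

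Of the sensors, *Ern2*, which intestinal epithelium uses beside *Ern1*, rose in BAC and BPAC. Its level with EtOH ranged from 40.3 to 78.2 CPM (median 65.9). After 4-HT its level in AC was 100.2 and 76.9 CPM, the PAC samples 74.2, 73.2, 72.6 and 55.8 CPM, the BAC samples 108, 119, 115 and 113 CPM and the BPAC samples 133, 66.4, 123 and 100.1 CPM. The 4 BAC samples were above all EtOH samples, while sample 1-2 of BPAC was within their range. The log2 fold change was 0.66 ± 0.18 (SE, edgeR adjusted p = 0.00302) in BAC and 0.85 ± 0.18 (SE, edgeR adjusted p = 0.000267) in BPAC, and 0.45 and 0.33 in AC and PAC. It missed the threshold in BAC without any one BAC culture or donor (0.61 to 0.69) and in BPAC without donor 2 (0.66). *Ern2* is known from goblet cells, and of the 10 goblet cell markers 3 rose and 3 fell in BAC and in BPAC. Their median log2 fold change was -0.40 in BAC and -0.16 in BPAC, and the part of goblet cells in the *Ern2* result was not tested.

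*Xbp1* fell in PAC, from 266, 220.0, 314 and 266 to 217, 213, 215 and 186 CPM (-0.36 ± 0.09, SE, edgeR adjusted p = 0.00323 on the log2 scale). The values with EtOH and 4-HT did not overlap, but with library size alone it was -0.14 and without the 2 duplicate 1 cultures -0.29, neither of which passed. It also missed the threshold without culture 1-1 (-0.38), 2-1 (-0.29) or 2-2 (-0.31) of PAC and without donor 2 (-0.18). In AC, BAC and BPAC its log2 fold changes were -0.13, 0.07 and 0.08. *Atf6*, *Ern1* and *Eif2ak3* passed in no genotype, at -0.07, -0.22, 0.21 and 0.01 for *Atf6*, 0.22, 0.03, -0.36 and -0.24 for *Ern1* and 0.17, 0.17, 0.37 and 0.29 for *Eif2ak3*. With the block *Eif2ak3* rose (0.38) and *Ern1* fell (-0.36) in BAC. *Eif2ak3* was called in BAC under 5 of 15 alternatives. Of the 5 sensor genes with *Xbp1*, 3 rose in BAC and 3 in BPAC with library size alone, beside 28.7% and 32% of all genes. Exons of *Eif2ak3* share 485 bases with *Gm43292* on the other strand.

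Promoters of the *Atf4* arm hold another element. The composite of a C/EBP and an ATF half-site, through which *Atf4* acts with C/EBP factors, was searched as tgatgnaa on both strands, with n for any base. It was in 3 of the 6 promoters of the *Atf4* arm, *Asns*, *Chac1* and *Trib3*, in 1 of 23 other members (*Herpud1*), and in 1304 of all 32851 promoters (3.97%). No member held both elements. The 250 bases before the start are shown for *Asns* (chr6:7693210-7693459, minus strand) and *Chac1* (chr2:119350992-119351241, plus strand) and, for *Trib3*, where the match follows the start, bases 4 to 33 (chr2:152344028-152344057, minus strand), with the element in capitals.
Asns: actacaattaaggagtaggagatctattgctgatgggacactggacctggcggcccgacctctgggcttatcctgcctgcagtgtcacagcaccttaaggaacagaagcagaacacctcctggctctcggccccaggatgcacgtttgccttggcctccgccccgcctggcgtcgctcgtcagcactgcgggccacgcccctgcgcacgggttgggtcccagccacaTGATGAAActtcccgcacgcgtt
Chac1: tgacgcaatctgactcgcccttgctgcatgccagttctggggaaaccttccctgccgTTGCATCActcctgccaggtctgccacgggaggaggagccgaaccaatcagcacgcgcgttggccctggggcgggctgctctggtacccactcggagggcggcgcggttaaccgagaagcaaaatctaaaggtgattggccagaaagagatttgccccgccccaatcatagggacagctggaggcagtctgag
Trib3: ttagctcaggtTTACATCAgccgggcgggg
The element reads forward in *Asns*, at bases -23 to -16, and in reverse in *Chac1*, at -193 to -186, and *Trib3*, at 15 to 22.

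**Figure D3:**
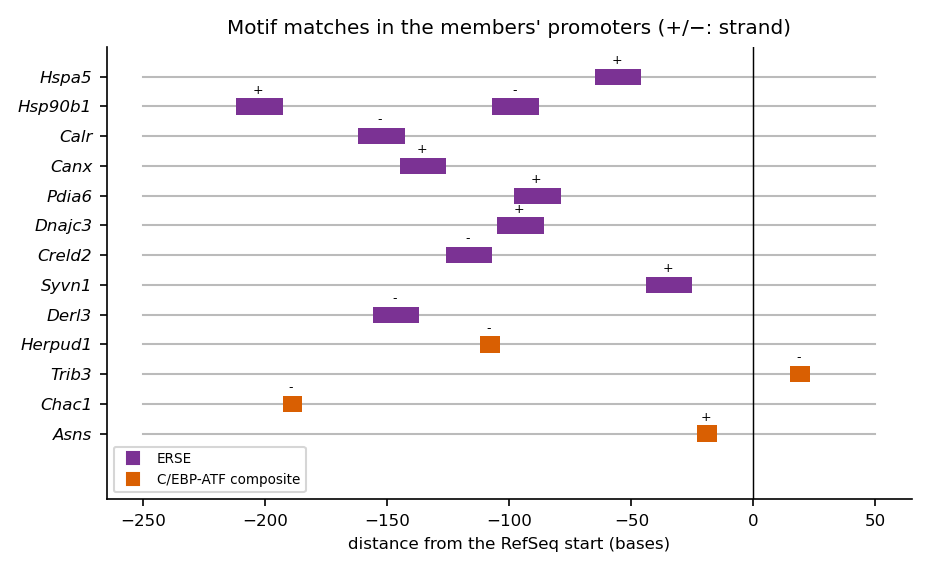
Position of motif matches (coloured bars, with + or − for the strand) between 250 bases before and 50 bases after the RefSeq start of the 13 members that held one, in bases along the horizontal axis. The 10 ERSE matches of 9 genes lie between bases -212 and -26, and the 4 C/EBP-ATF composite matches between -193 and 22.

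The transcript of *Atf4* (ENSMUSG00000042406, chromosome 15 from 80255184 to 80257541, plus strand) had a lowest value of 91.9, a median of 112 and a highest value of 153 CPM with EtOH. In the 4-HT-treated organoids of AC it was 115 and 84.0 CPM, the PAC samples 128, 113, 128 and 104 CPM, the BAC samples 157, 146, 163 and 157 CPM and the BPAC samples 170.1, 178, 173 and 152 CPM. The 8 samples with the *Braf* allele were above the 6 without it, and above every EtOH sample but PAC 2-1. It rose by 0.57 ± 0.11 (SE, edgeR adjusted p = 0.000108) in BAC and 0.60 ± 0.11 (SE, edgeR adjusted p = 5.13e-05) in BPAC, and -0.10 and -0.04 in AC and PAC. It missed the threshold in BAC and BPAC without donor 1 of that genotype (0.52 and 0.48).

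*Asns* (ENSMUSG00000029752, chromosome 6 from 7675169 to 7693254, minus strand), asparagine synthetase, passed in BAC and BPAC under every alternative. With EtOH it had a lowest value of 92.9, a median of 108 and a highest value of 134 CPM. Recombined AC organoids held 113 and 123 CPM, the PAC samples 127, 126, 124 and 128 CPM, the BAC samples 260.1, 243, 252 and 229 CPM and the BPAC samples 254, 276, 230.0 and 229 CPM. The samples of BAC and BPAC were all above 128 CPM, the highest value of AC and PAC. The log2 fold change was 1.13 ± 0.09 (SE, edgeR adjusted p = 4.75e-10) in BAC and 1.29 ± 0.09 (SE, edgeR adjusted p = 3.73e-11) in BPAC, and 0.16 and 0.06 in AC and PAC.

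*Trib3* (ENSMUSG00000032715, chromosome 2 from 152337422 to 152344032, minus strand), a pseudokinase that restrains *Atf4*, went in opposite directions. In AC it went from 10.2 and 10.6 to 6.00 and 4.67 CPM and in PAC from 13.4, 16.2, 29.5 and 16.0 to 8.64, 9.91, 10.6 and 8.25 CPM, lower in 6 of 6 cultures. In BAC it went from 9.55, 7.99, 10.9 and 13.4 to 35.8, 18.1, 29.3 and 26.1 CPM and in BPAC from 11.2, 26.8, 8.78 and 18.4 to 26.5, 41.0, 29.2 and 27.7 CPM, higher in 8 of 8 cultures. It fell in PAC (-1.005 ± 0.28, SE, edgeR adjusted p = 0.00693) and rose in BAC (1.39 ± 0.28, SE, edgeR adjusted p = 0.000204) and BPAC (0.93 ± 0.28, SE, edgeR adjusted p = 0.00611), and in AC its -0.96 did not pass (edgeR adjusted p = 0.107). EtOH and 4-HT samples of different BPAC cultures overlapped. The fall in PAC did not pass with library size alone (-0.77), without the 2 duplicate 1 cultures (-0.83), or in 8 fits (-1.27 to -0.67) that left out any PAC culture or donor, BAC culture 2-1 or BAC donor 2. The rise missed the threshold without donor 1 in BAC (1.19) and in 6 fits for BPAC (0.75 to 1.06), those without BPAC culture 1-1, 2-1 or 2-2, either BPAC donor or BAC donor 2.

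*Chac1* (ENSMUSG00000027313, chromosome 2 from 119351229 to 119354381, plus strand), which degrades glutathione, was 10.3 and 9.46 CPM with EtOH and 6.63 and 4.64 CPM with 4-HT in AC, and 7.49, 10.5, 14.9 and 9.89 and then 8.36, 7.91, 7.31 and 7.49 CPM in PAC. In BAC it went from 6.38, 7.34, 7.94 and 7.80 to 15.6, 7.04, 12.98 and 10.3 CPM, and in BPAC from 9.15, 12.4, 7.61 and 7.52 to 13.4, 16.6, 15.01 and 10.6 CPM. EtOH and 4-HT samples overlapped in BAC and BPAC, and no genotype passed, with log2 fold changes of -0.81, -0.46, 0.65 and 0.60. In BPAC it rose with the block (0.61). Of the 6 genes of the *Atf4* arm, 4 rose in BAC and 4 in BPAC with library size alone, beside 28.7% and 32% of all genes. *Ddit3* (CHOP), a factor tied to cell death under lasting ER stress, was lower with 4-HT in all 14 cultures and called in none of the genotypes, with log2 fold changes of -0.60, -0.81, -0.34 and -0.54. With the block it fell in PAC (-0.79) and BPAC (-0.56), and 68 of its exon bases overlap *Mars* on the other strand. *Ppp1r15a* (Gadd34), which brings a phosphatase to eIF2alpha, passed in no genotype (-0.27, -0.41, 0.27 and 0.32), and its EtOH value in PAC 2-1, 37.3 CPM, was the highest of all samples.

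**Figure D4:**
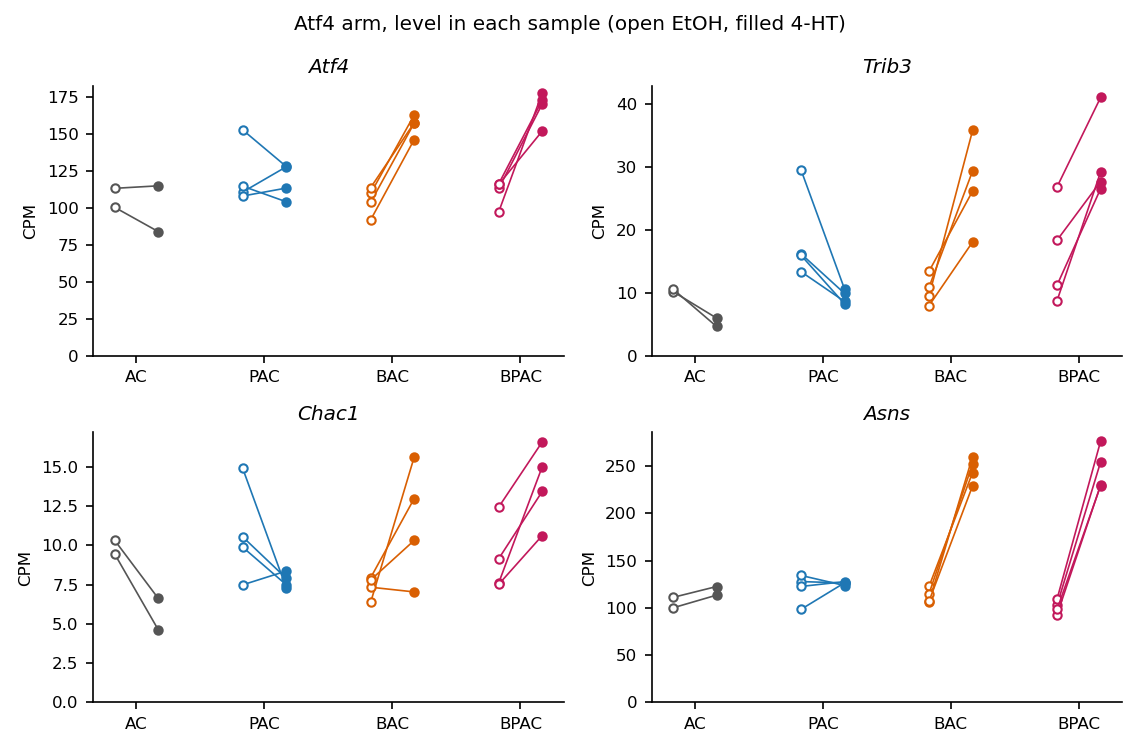
Level in CPM (linear axes from 0) of *Atf4*, *Trib3*, *Chac1* and *Asns* in each sample, open circles EtOH and filled circles 4-HT, with a line joining the samples of one culture. *Asns* with 4-HT is 229 CPM or more in every BAC and BPAC sample and 128 CPM or less in every AC and PAC sample, and the *Trib3* lines run down in AC and PAC and up in BAC and BPAC.

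Whether the *Braf* allele changed the response was tested by setting the average response of BAC and BPAC organoids to 4-HT against the average response of AC and PAC organoids. A total of 8 members passed, each with a higher change with the allele, 23.5% of the members beside 3.05% of all genes, and 0 had a lower one beside 3.55%. With the replicate block 10 and 0 passed, beside 6.51% and 7.48% of all genes, the others being *Pdia6* (log2 difference 0.33) and *Sdf2l1* (0.38). The median difference over the 34 members was 0.17, and 0.88 over the 6 genes of the *Atf4* arm, beside -0.01 over all genes. In the *Atf4* arm the difference was 2.14 ± 0.32 (SE, edgeR adjusted p = 9.92e-05) for *Trib3*, 1.26 ± 0.24 (SE, edgeR adjusted p = 0.00108) for *Chac1*, 1.10 ± 0.10 (SE, edgeR adjusted p = 1.89e-07) for *Asns* and 0.66 ± 0.12 (SE, edgeR adjusted p = 0.00079) for *Atf4*. Among the chaperones it was 0.53 ± 0.09 (SE, edgeR adjusted p = 0.000442) for *Creld2*, 0.49 ± 0.10 (SE, edgeR adjusted p = 0.00265) for *Manf*, 0.43 ± 0.09 (SE, edgeR adjusted p = 0.00188) for *Hspa5* and 0.32 ± 0.07 (SE, edgeR adjusted p = 0.00353) for *Hsp90b1*.

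Per culture, 8 members had a change in every one of the 8 cultures with the *Braf* allele that was above every change in the 6 without it, which 4.9% of all genes had. They were the 8 above without *Chac1* and with *Pdia6*. For *Asns* the changes ran from -0.12 to 0.36 (median 0.10) without and from 0.99 to 1.33 (median 1.26) with the allele. For *Trib3* they ran from -1.47 to -0.63 and from 0.59 to 1.90. For *Chac1* culture 1-2 of BAC (-0.06) fell below culture 1-1 of PAC (0.16).

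Each of the 8 differences had the same direction within duplicate 1 and within duplicate 2. They were 2.54 and 1.83 for *Trib3*, 1.46 and 1.04 for *Chac1*, 1.12 and 1.08 for *Asns* and 0.60 and 0.74 for *Atf4*. Among the chaperones they were 0.58 and 0.48 for *Creld2*, 0.53 and 0.44 for *Manf*, 0.49 and 0.37 for *Hspa5* and 0.42 and 0.23 for *Hsp90b1*. With 7 donors in each duplicate, 4 of the 34 members passed in duplicate 1 and 1, *Asns*, in duplicate 2, all above 0, beside 1.55% and 0.0814% of all genes that passed above 0 and 2.34% and 0.155% below 0 there. Without the 2 duplicate 1 cultures of PAC 5 members passed (*Asns*, *Trib3*, *Atf4*, *Chac1* and *Creld2*), all above 0 as were 2.79% of all genes, and *Hspa5*, *Hsp90b1* and *Manf* were at 0.36, 0.30 and 0.45.

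*Asns*, *Trib3*, *Atf4* and *Creld2* passed whichever culture or donor was left out. *Chac1* missed the threshold without culture 1-2 of AC (1.17) and without PAC donor 2 (1.10). *Hspa5* missed it without either AC culture (0.45 and 0.40), PAC donor 2 (0.38) or BAC donor 2 (0.42). *Manf* did in 5 such fits (0.43 to 0.52), those without either AC culture, PAC donor 2 or either BAC donor. *Hsp90b1* did in 8 (0.28 to 0.35), those without AC culture 1-1, BAC culture 2-1, BPAC culture 1-1, either PAC donor, either BAC donor or BPAC donor 1. It also missed it with library size alone (0.28).

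**Figure D5:**
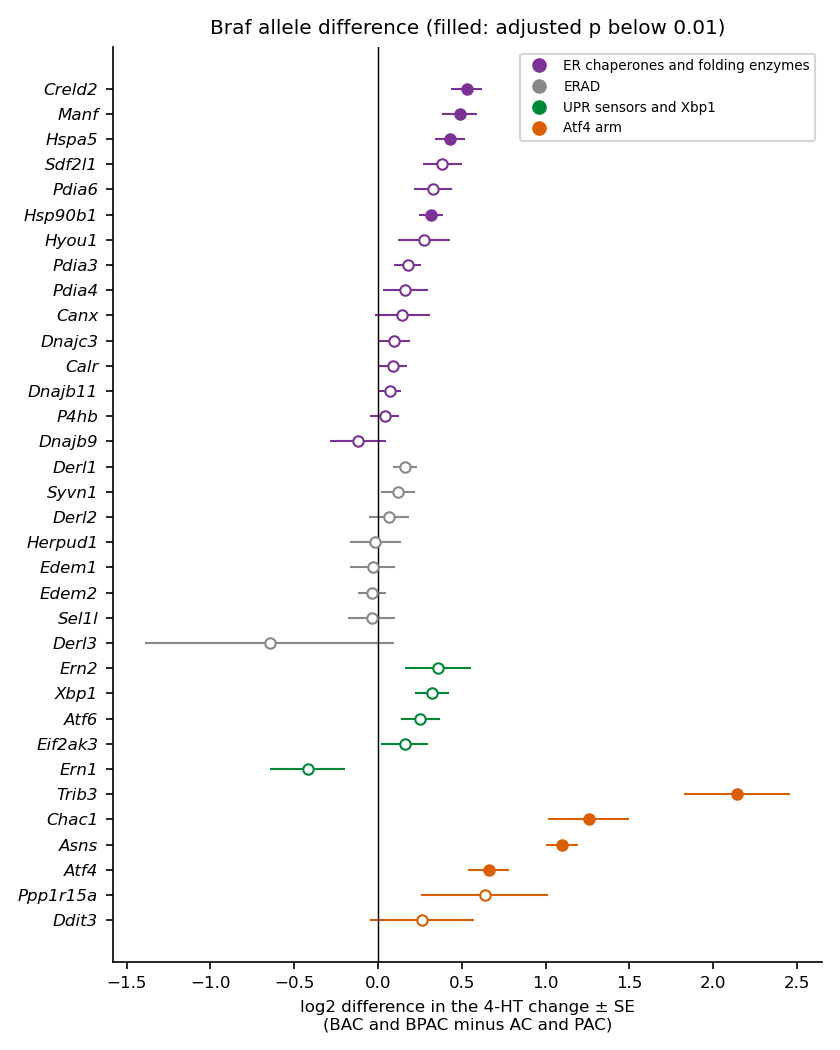
Response to 4-HT where the *Braf* allele was present minus that where it was absent (log2, horizontal axis), with its SE, for the 34 members, coloured by arm, filled where the edgeR adjusted p was below 0.01. The 8 filled points, *Creld2*, *Manf*, *Hspa5* and *Hsp90b1* among the chaperones and *Trib3*, *Chac1*, *Asns* and *Atf4* in the *Atf4* arm, lie to the right of 0 from 0.32 to 2.14.

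Of the members that did not pass, *Ern2* (0.36 ± 0.20, SE), *Xbp1* (0.32 ± 0.10), *Sdf2l1* (0.38 ± 0.12), *Pdia6* (0.33 ± 0.11) and *Ppp1r15a* (0.64 ± 0.38) had differences above 0.3. *Ern1* went the other way, with a median change per culture of -0.31 with and 0.08 without the allele. It was higher with 4-HT in 0 of 8 and 4 of 6 cultures. The scarcely expressed *Derl3* also went that way (medians 0.24 and 0.36). Of the falling genes the differences were -0.12 ± 0.16 for *Dnajb9*, 0.04 ± 0.09 for *P4hb*, -0.03 ± 0.13 for *Edem1* and -0.04 ± 0.14 for *Sel1l*. Beside the *Braf* results stands the summed level of the 5 markers of dividing cells, which with 4-HT did not overlap between samples with the allele (950.0 CPM or more) and without it (745 CPM or less), and the greater depth of the duplicate 1 samples with the allele. With all samples thinned to the smallest total, the 8 differences ranged from 0.33 to 2.16 and all passed, and the part of cell division was not tested.

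The same was done for the *Trp53* allele, with PAC and BPAC organoids against AC and BAC organoids. Of the 34 members 0 passed in edgeR, DESeq2 and limma-voom, beside 0.0148% of all genes, and 1 (*Derl3*) had an unadjusted p under 0.05. For the *Atf4* arm the median difference was 0.00 and for the chaperones -0.05. Before recombination, with EtOH samples of BAC and BPAC against those of AC and PAC, 0 members passed with any of these 3 tools, beside 0.0296% of all genes. Here 4 had an unadjusted p under 0.05 (*Dnajb11*, *Edem1*, *Syvn1* and *Xbp1*, with log2 differences of 0.12, 0.23, 0.16 and 0.16).

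Other genes of the same pathways were counted from lists. The shares of all genes given above for each genotype, for the unpaired test, the replicate block and library size alone, are the background to read their counts against. Of 24 other ER folding and redox enzymes 1 rose and 0 fell in AC, 4 rose and 1 fell in PAC, and 6 (25%) rose and 0 fell in BAC and in BPAC, beside 20.3% and 22% of all genes that rose. *Fkbp11*, a prolyl isomerase of secretory cells, rose by 1.32 in BAC and 1.46 in BPAC, and *Rcn1*, a calcium-binding protein, by 1.45 in BAC. Of 19 genes of the ER translocon and signal peptidase 0 passed in AC and PAC, 5 rose in BAC and 7 in BPAC with none falling, among them *Spcs3* of the signal peptidase (0.42 and 0.55) and *Srprb* of the signal recognition particle receptor (0.35 and 0.44). The shares that rose, 26.3% and 36.8%, stand beside the same 20.3% and 22%. Scaled by library size alone, 4, 7, 10 and 10 of the folding enzymes and 2, 4, 10 and 15 of the translocon genes rose in AC, PAC, BAC and BPAC, and with the replicate block 4, 6, 8 and 10 and 0, 1, 7 and 11 did, with 2 folding enzymes falling in PAC and in BAC. No *Braf* difference passed in either list, but with the block 2 in each did, all of them above 0. Of 18 other ERAD genes 0 rose and 1 fell in AC, 0 rose and 3 fell in PAC, 1 rose and 7 fell in BAC, and 2 rose and 6 fell in BPAC, falls of 38.9% and 33.3% in BAC and BPAC beside 21.5% and 23% of all genes. The lectins *Os9* (-0.70 and -0.85) and *Erlec1* (-0.67 and -0.77) fell in BAC and BPAC. *Os9* also fell in PAC (-0.35), and its *Braf* difference passed at -0.41. With library size alone 3 of these ERAD genes rose and 2 fell in BAC, and 4 rose and 4 fell in BPAC. The block gave 0, 0, 4 and 3 rising and 3, 5, 8 and 7 falling in AC, PAC, BAC and BPAC.

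Of 18 other sensors and regulators 1 rose and 1 fell in AC, 1 rose and 3 fell in PAC, 5 rose and 2 fell in BAC, and 5 rose and 6 fell in BPAC, beside 22% and 23% of all genes in BPAC. Library size alone gave 2 and 1, 6 and 3, 8 and 2, and 9 and 2 in the same order, and the replicate block 1 and 3, 4 and 4, 7 and 3, and 8 and 8. *Eif2s1*, which encodes eIF2alpha itself, rose in all 4 genotypes, by 0.47, 0.37, 0.84 and 0.92, and by 0.46 more with the *Braf* allele. *Creb3l3* fell in PAC (-1.66), and *Crebrf*, a regulator of a related factor, fell in PAC, BAC and BPAC (-0.99, -1.23 and -1.54).

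Further targets of *Atf4* and *Ddit3* also rose in BAC and BPAC. Of 25 such genes 2 rose and 1 fell in AC, 4 rose and 2 fell in PAC, 14 rose and 3 fell in BAC, and 14 rose and 2 fell in BPAC, and the *Braf* difference passed in 10, all of them above 0. The 56% that rose in BAC and in BPAC stand beside 20.3% and 22% of all genes, and the 40% with a *Braf* difference beside 3.05%. Library size alone gave 4, 9, 14 and 16 rising genes in AC, PAC, BAC and BPAC and 9 *Braf* differences (all genes 2.01% above 0 and 3.8% below), and the replicate block 2, 6, 14 and 15 rising genes and 12 differences (6.51%). The 10 were *Psat1*, *Phgdh* and *Psph* of serine synthesis, the mitochondrial folate enzymes *Shmt2*, *Mthfd2* and *Aldh1l2*, and the amino acid transporter genes *Slc7a11*, *Slc3a2*, *Slc7a5* and *Slc6a9*. The difference was 1.61 ± 0.29 (SE) for *Slc7a11*, the cystine transporter, and 1.42 ± 0.28 for *Aldh1l2*. The stress cytokine *Gdf15* rose by 1.49 in BAC and 1.79 in BPAC, and *Slc7a5* rose in all 4 genotypes, by 0.78, 0.80, 1.36 and 1.55.

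Cytosolic aminoacyl-tRNA synthetases, which *Atf4* is known to raise, had the highest share of rising genes among these lists in BAC and BPAC. All 12 rose in BAC and in BPAC, 3 rose in PAC and 0 passed in AC, and the *Braf* difference passed above 0 in 8 (*Cars*, *Gars*, *Iars*, *Lars*, *Mars*, *Nars*, *Sars* and *Tars*), 66.7% beside 3.05% of all genes. With the replicate block 5 rose in AC and 4 in PAC, and with library size alone 6 and 8, with 6 *Braf* differences. The difference was 0.64 ± 0.09 (SE) for *Cars*, 0.63 ± 0.11 for *Mars*, 0.57 ± 0.14 for *Iars* and 0.54 ± 0.11 for *Gars*. Of the 7 with a promoter in the RefSeq table, 5 (*Aars*, *Gars*, *Iars*, *Tars* and *Yars*) held the tgatgnaa composite, and 4 of 20 other *Atf4* and *Ddit3* targets did (*Atf3*, *Nupr1*, *Vldlr* and *Slc7a11*). None of these promoters held the ERSE.

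Without the 2 duplicate 1 cultures of PAC, 0.163% of all genes rose and 0.192% fell in PAC. Of these lists 0 genes then rose in PAC, and 1 fell, *Cth* of the *Atf4* and *Ddit3* targets. The *Braf* difference passed above 0 in 2.79% and below 0 in 3.05% of all genes. It passed above 0 in 11 of the 25 *Atf4* and *Ddit3* targets (the 10 above and *Stc2*) and in the same 8 of 12 synthetases. It also passed in *Eif2s1*, below 0 in *Os9*, and in 1 of the 24 folding enzymes, *Dnajc10*.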

How the data were processed

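RNA-seq of 28 colon organoid samples was re-analysed from gene counts. The deposited table holds counts of reads, not normalized, for 13519 genes, and comes from the authors' own counting. Of these genes 13479 had a symbol in the annotation of GRCm38. Per the submitters' processing notes, Trimmomatic 0.39 and STAR 2.5.2b were used with GRCm38 (mm10). The counting program, its annotation and its strand setting are not given in the sources used here. The lowest row sum was 116, and 0 columns of values were left unmapped. The dose of 3.5 µM is that of the labels and of the study's RNA sequencing methods, while its organoid culture methods give 3 µM. Where a label lacked its duplicate number (1 sample), it was read as duplicate 1.

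Counts were normalized with TMM (factors 0.885 to 0.970 with EtOH and 1.04 to 1.10 with 4-HT) and fitted in edgeR 4.0.16 (R 4.3.3) as 8 groups sharing 1 estimate of the spread, with quasi-likelihood tests (common biological coefficient of variation 0.191, 20 residual degrees of freedom). Benjamini-Hochberg adjustment ran over all genes, the threshold was the study's 0.01, and no low-count filter was used. The SE of a log2 fold change is its size divided by the root of F, CPM used TMM-scaled totals, and changes per culture were differences of log2 CPM with a prior count of 2. Counts carry no molecular identifiers, so depth gives counting error only. The duplicates of a donor come from one mouse, so p values measure the spread between samples and not only between mice.

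The EtOH and the 4-HT sample of a culture come from the same donor, and their deviations from the group means correlated by 0.245 to 0.532 in all 14 cultures, so the culture was used as a replicate block in an alternative fit. Other alternatives were limma-voom (limma 3.58.1), DESeq2 1.42.0, its size factors, library size alone, 2 low-count filters, donors summed, each genotype alone, a threshold of 0.05, other prior counts, the mean over an arm, samples thinned to the smallest total, each duplicate alone, without the 2 duplicate 1 cultures of PAC, and each culture or donor left out. Summing the 2 duplicate 1 PAC samples with 4-HT as 1 sample was chosen after seeing the data. The fits were tested on simulated counts with changes of known size. These counts were drawn without differences between donors or cultures, so dependence between samples of a donor was not tested. The members and lists were chosen with earlier results of these data known. All members are named, values are given for those past the threshold in 2 or more genotypes or in an allele contrast, and of each other list the 2 genes with the largest mean change among those past it, plus those with a *Braf* difference, at most 4 (other genes with a called *Braf* difference are named without values). Promoters were RefSeq sequences of GRCm38.p6, of which 26 of 29 ended in bases found in a transcript of the gene. Figures were drawn with Python 3.11.15 and matplotlib 3.10.9.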

Additional observations from a re-analysis of the deposited data

Results flagged for a closer look

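Of 102 groups of 4 cultures examined (34 members in PAC, BAC and BPAC), 8 held a culture whose change lay far from the other 3 by Dixon's criterion, which chance gives in about 1 of 20 groups. These were *Hsp90b1* (0.36) and *Pdia3* (0.39) in BAC culture 2-1, *Hyou1* in BAC culture 2-2 (0.90), *Edem2* in BAC culture 1-2 (-0.23), *Sdf2l1* in BPAC culture 1-1 (0.73), *Herpud1* in BPAC culture 1-2 (-0.11), *Derl2* in PAC culture 1-2 (0.062) and *Ppp1r15a* in PAC culture 2-1 (-1.05), all in log2 CPM. The change of *Ppp1r15a* comes with the highest EtOH value of all samples.

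The response to 4-HT depended on the *Braf* allele, in the test of that difference, for *Hspa5* (0.43), *Hsp90b1* (0.32), *Manf* (0.49), *Creld2* (0.53), *Atf4* (0.66), *Trib3* (2.14), *Chac1* (1.26) and *Asns* (1.10). Outside the members, the 4-HT-treated PAC sample 1-1, of a donor whose other samples held at most 0.251 CPM of *Xist*, held 25.2 CPM, and sample 2-1, of a donor whose other samples held 0 CPM of Y-linked genes, held 53.5 CPM of them.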

How the results depend on the processing

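Of 43 calls of a member in a comparison, 14 held under every alternative and 15 without each culture and donor, and 11 held under both. No called value changed sign in any fit, and 35 calls held with library size alone. Counts of members are followed by the members' share and the share of all genes called in the same fit. The count in AC (0) became 1 with DESeq2 (2.94% and 11.9%), 4 with library size alone (11.8% and 13.4%), 1 with the replicate block (2.94% and 16.4%), 1 at a threshold of 0.05 (2.94% and 16.8%) and 1 in duplicate 1 alone (2.94% and 6.61%). That in PAC (5, 14.7% and 23.4%) became 10 with the replicate block (29.4% and 34.9%), 3 with donors summed (8.82% and 20.1%), 1 with PAC fitted alone (2.94% and 15.1%), 9 at 0.05 (26.5% and 36.7%) and 9 in duplicate 1 alone (26.5% and 29.4%). It became 0 in duplicate 2 alone (0.0518% of all genes), 0 without the 2 duplicate 1 cultures of PAC (0.355%) and 3 with their 4-HT samples summed (8.82% and 16.7%), an alternative chosen after seeing the data. In BAC (13, 38.2% and 41.9%) it became 6 in duplicate 2 alone (17.6% and 21%). In BPAC (17, 50% and 45%) it became 9 with BPAC fitted alone (26.5% and 33.4%) and 7 in duplicate 2 alone (20.6% and 22.2%). For the *Braf* difference (8, 23.5% and 6.61%) it became 4 in duplicate 1 alone (11.8% and 3.88%), 1 in duplicate 2 alone (2.94% and 0.237%) and 5 without the duplicate 1 cultures of PAC (14.7% and 5.84%). Fits on a single duplicate or genotype hold fewer samples, and for the others the cause was not tested. With a culture or donor left out the counts ran from 0 to 1 in AC, 0 to 7 in PAC (0 without donor 2, where 2.49% of all genes passed), 7 to 15 in BAC (7 without donor 1, 20.6% and 22.8%), 9 to 17 in BPAC (9 without donor 1, 26.5% and 30.2%) and 4 to 9 for the *Braf* difference (4 without PAC donor 2, 11.8% and 4.21%), and stayed 0 for the *Trp53* and EtOH contrasts. The replicate block, which pairs the samples of a culture, added 15 calls, all given above, and ended none. It gives no EtOH contrast. Single calls also ended with limma-voom (*Trib3* in PAC, *Edem1* and *Sel1l* in BPAC), with DESeq2 size factors (*Sel1l* in BPAC), with a mean of at least 10 CPM (*Pdia3* in BAC, *Pdia4* in BPAC), after thinning (*Dnajb11* in PAC), and with donors summed (*Dnajb11* and *Xbp1* in PAC, *Pdia3* in BAC, *Edem1* in BPAC, and the *Braf* differences of *Hsp90b1* and *Manf*). With library size alone the arm changes in AC, PAC, BAC and BPAC became 0.33, 0.19, 0.44 and 0.51 for chaperones, 0.074, -0.020, 0.089 and 0.014 for ERAD genes and 0.38, 0.19, 0.38 and 0.33 for sensors, and the *Atf4* arm became -0.24 in AC and 0.81 in BPAC. With the mean over an arm, chaperones were 0.045 in AC and 0.20 in BAC, and ERAD genes 0.043 in AC and 0.0071 in BAC, where the mean includes *Derl3*. In duplicate 1 alone chaperones were 0.064 in AC, and ERAD genes -0.19 in AC and -0.040 in BAC. With a culture left out they ran, in the same order of genotypes, 0.081 to 0.13, -0.063 to -0.0098, 0.25 to 0.29 and 0.23 to 0.34 for chaperones, -0.17 to -0.12, -0.32 to -0.21, -0.096 to -0.069 and -0.22 to -0.15 for ERAD genes, 0.11 to 0.22, -0.096 to 0.053, 0.17 to 0.24 and 0.063 to 0.17 for sensors and -0.51 to -0.41, -0.51 to -0.14, 0.53 to 0.70 and 0.51 to 0.65 for the *Atf4* arm. The AC donor cannot be left out, and a fit without 1 AC culture assumes that the lone sample of an arm varies like the other groups. The filter by expression kept all 13519 genes, and a mean of at least 10 CPM kept 9011 and 31 members. Depth limits *Derl3* most, with at most 43 counts per sample.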

Other observations

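Chaperones outside the ER moved too. Of 12 cytosolic heat shock chaperones 0, 5, 6 and 7 rose in AC, PAC, BAC and BPAC, and 0 fell, beside 3%, 11.2%, 20.3% and 22% of all genes that rose. With the replicate block 3, 6, 6 and 7 rose and 2 fell in BPAC. *Hsph1*, a nucleotide exchange factor of Hsp70, rose by 0.68 in PAC and 1.06 and 1.10 in BAC and BPAC, and *Hsp90aa1*, the inducible cytosolic Hsp90, by 0.49 and 0.69 and 0.79. *Hspa4* had a called *Braf* difference, 0.46 ± 0.08 (SE), as 1 of the 12, while 3 did with the replicate block and 2 with DESeq2 size factors. Of 10 mitochondrial chaperones and proteases 1, 1, 6 and 7 rose in the same order, and 0 fell, while with the block 2, 2, 7 and 8 rose and 1 fell in PAC. With library size alone 6, 8, 7 and 7 of the first list and 5, 6, 7 and 8 of the second rose. Without the 2 duplicate 1 cultures of PAC 0 of either list rose in PAC, and the *Braf* difference passed for *Hspa4* and *Hspd1*. *Hspd1* and *Hspa9*, the Hsp60 and Hsp70 of the matrix, rose by 0.75 and 0.87 and by 0.56 and 0.66 in BAC and BPAC, each with a called *Braf* difference (0.46 and 0.38), and the protease *Lonp1* rose by 0.69 and 0.65. None of the 9 promoters found for each of these lists held the ERSE or the tgatgnaa composite.

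Without the same 2 cultures 0 of the colonocyte, goblet cell and dividing cell markers below passed in PAC, and 1 stem cell marker (*Ascl2*) did. The *Braf* difference then passed for *Guca2a*, *Ccnb1* and *Cdk1* and not for *Agr2* and *Tff3*. Of the cell type lists, 4, 6, 7 and 8 of 8 colonocyte markers fell in AC, PAC, BAC and BPAC, led by *Guca2a* (-1.85, -1.09, -2.72 and -3.03) and *Aqp8* (-2.88 in BPAC). With the replicate block 6, 8, 8 and 8 did. Of 10 goblet cell markers 1 rose and 0 fell in AC, 4 rose and 0 fell in PAC, and 3 rose and 3 fell in BAC and in BPAC. The block gave 1 and 2, 5 and 3, 3 and 4, and 4 and 4. *Agr2*, a disulfide isomerase of the ER of goblet cells, rose by 0.98 and 1.30 in BAC and BPAC, with a *Braf* difference of 0.83, and *Tff3* fell by 1.48 and 1.21, with a difference of -0.98. Of 4 stem cell markers 2, 4, 3 and 4 rose in AC, PAC, BAC and BPAC, among them *Ascl2* and *Lgr5*, and of 5 markers of dividing cells 2, 3, 4 and 5 rose, among them *Mcm2* (1.34 and 1.46 in BAC and BPAC) and *Ccnb1*, with a *Braf* difference of 0.66. With the block and with library size alone 3, 4, 3 and 4 stem cell markers and 3, 5, 5 and 5 markers of dividing cells rose. Of 5 enteroendocrine markers *Neurog3* rose in all 4 genotypes and *Gcg* fell in BAC and BPAC, and of 3 tuft cell markers 2 fell in BAC (*Dclk1* and *Trpm5*) and 1 in BPAC. With the block 2 enteroendocrine markers fell in BAC and in BPAC, and with library size alone 1 and 0 did. Of 5 epithelial markers 1 fell in PAC and 2 in BAC and BPAC, with *Epcam* at -0.44, -0.58 and -0.74. The block gave 0, 1, 1 and 1 rising and 1, 2, 2 and 3 falling in AC, PAC, BAC and BPAC, and library size alone 0, 1, 1 and 1 rising and 0, 0, 1 and 2 falling.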
